A study of Mus musculus with 12 samples.

Results

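Messenger RNAs that remained in Mettl3 cKO hepatocytes after 2 h of actinomycin D were compared with those that remained in Control hepatocytes. The comparison uses 4 of the 12 libraries of the series, 2 of Mettl3 cKO and 2 of Control cells at 2 h, and was made for every expressed gene, 14488 of the 48440 genes in the count table. Mettl3 cKO mice carried Mettl3 flox/flox alleles, with exons 2 to 4 between the loxP sites, and a Cre transgene under the albumin enhancer and promoter inserted at the H11 locus, so that only cells that use the albumin promoter lose Mettl3. The Control mice were littermates, labelled WT, and all animals were of the C57BL/6J background. Primary hepatocytes from both genotypes were isolated by collagenase perfusion, cultured for 16 h and then given 5 µM actinomycin D for 0, 2 or 6 h. The age and sex of the animals behind these libraries and whether the replicates came from separate animals are not given in the sources used here, so that the p-values below measure the spread between libraries, which may be technical.

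Mettl3 is the catalytic subunit of the nuclear complex that writes N6-methyladenosine (m6A) on mRNA, mostly in the consensus GGACT and its variants and often near the stop codon or in long exons. Readers of the YTH family bind the mark, and Ythdf2 brings the marked mRNA to the deadenylation machinery, so that m6A is best known for shortening the life of a transcript, while readers of the Igf2bp family are known for the opposite. Actinomycin D binds DNA and stops transcription, and the mRNA found hours later is what has not yet decayed. Values here are shares of the mRNA left in each library. A transcript that decays more slowly than the average mRNA therefore gains in share, and no absolute amount can be read from them.

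The GGACT consensus lies within 200 bases of the stop codon in 40.0% of the 13291 tested genes with an annotated coding transcript (mRNA strand only). For 6 genes with a far higher level in Mettl3 cKO cells at 2 h, and 1 with a lower level (Fbln2), such a site is shown so that the values below can be read beside the sequence. The capitals mark GGACT, and no methylation was measured in these libraries. The coordinates are those of mm10. The sites lie in the coding part of Snx20 (chr8:88627250-88627274, minus strand), of Dyrk3 (chr1:131128779-131128803, minus strand), of Ddit4l (chr3:137626317-137626341, plus strand), of Cited2 (chr10:17724703-17724727, plus strand) and of Fbln2 (chr6:91271770-91271794, plus strand), and in the 3′ UTR of Lcmt2 (chr2:121138520-121138544, minus strand) and of Ythdf2 (chr4:132186832-132186856, minus strand).
Snx20: cgctgggcaaGGACTtcgcggcgct
Dyrk3: tgctttccagGGACTgggttccaag
Ddit4l: ccagcctcaaGGACTtcttctttag
Cited2: attttatgacGGACTtcgtgtgcaa
Lcmt2: aataaagaatGGACTtgatatattt
Ythdf2: aagaaaattaGGACTttttttctta
Fbln2: tggagccgcgGGACTttgccctaga
Of the 12 genes named below for the largest positive differences 4 had such a site, and of the 12 named for the largest negative differences 6 did.

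The 4 libraries of 2 h held 17830556 to 18795601 counted reads, within the 16952084 to 20914516 of all 12. Ddx3y, a Y-linked gene, had 2561 to 3079 reads and Xist at most 1 read in each of the 4 libraries of 2 h. Both Control libraries of 6 h stood apart, with 16565 and 20246 Xist reads and at most 1 read of Ddx3y, against at most 6 Xist reads in every other library. By these 2 genes they read as female cells, and every other library, with at least 2440 Ddx3y reads, as male cells. These 6 h libraries enter the filter on low counts, the scaling and the shared estimate of the spread, and counts are given without them below where they matter. Albumin mRNA made up 5.24% and 5.29% of reads in Mettl3 cKO, against 6.23% and 6.37% in Control, and mitochondrially encoded genes 1.66% and 1.78%, against 2.83% and 2.87%.

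The targeted gene was examined first. Mettl3 had 440 and 482 reads in the Mettl3 cKO libraries of 2 h, against 455 and 454 in the Control libraries, or 22.4 and 24.2 normalised CPM (reads of a gene scaled to the TMM-adjusted total of the library) against 24.4 and 25.9. The log2 difference was -0.11 ± 0.10 (SE, 2 libraries a group here and throughout, edgeR quasi-likelihood test, adjusted p = 0.36), while at 0 h it was -0.47 (adjusted p = 3.3e-04). The change between the 2 times was 0.36 ± 0.15 and was not called (adjusted p = 0.11, same test). These are counts over the whole gene. Exons 2 to 4 hold 799 of the 2025 bases of the transcript Mettl3-201 (39.5%), and 18.4% of the exon bases of Mettl3 are shared with Tox4 on the other strand, which a kit that does not mark strand cannot separate. Reads over the floxed exons alone are not given in the table, so that the count neither shows nor refutes the deletion at 2 h.

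At 2 h, 4680 of 14488 genes (32.3%) were higher in Mettl3 cKO and 4139 (28.6%) lower, at an adjusted p under 0.05 in the edgeR quasi-likelihood test, 60.9% in either direction. The larger differences were mostly positive. A log2 difference above 1 was found for 1994 of the higher genes and one below -1 for 679 of the lower genes, and beyond 3 on the log2 scale the numbers were 202 and 63. Differences of the lower genes were thus more often small. The median over all tested genes was 0.033, with quartiles of -0.36 and 0.62. The split of the calls depends on how libraries are scaled. Scaled to total counts the median was 0.15 with 5474 genes higher and 3092 lower, scaled to the cytosolic ribosomal protein mRNAs it was 0.12 with 4964 and 2994, and scaled to the mitochondrially encoded mRNAs, themselves lower in Mettl3 cKO, it was 0.94 with 11502 and 332. Under that last scaling 2481 genes called lower on the TMM scale were called higher, so that every direction below is relative to the TMM scale. A scaling shifts all genes by nearly the same amount. Relative to the median of all genes, the medians of the gene lists below therefore moved by at most 0.013 among the scalings. This follows by construction and is no check on the lists. Without the 6 h libraries the counts were 4620 and 4372, of which 4595 and 4118 were among those above.

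**Figure D1:**
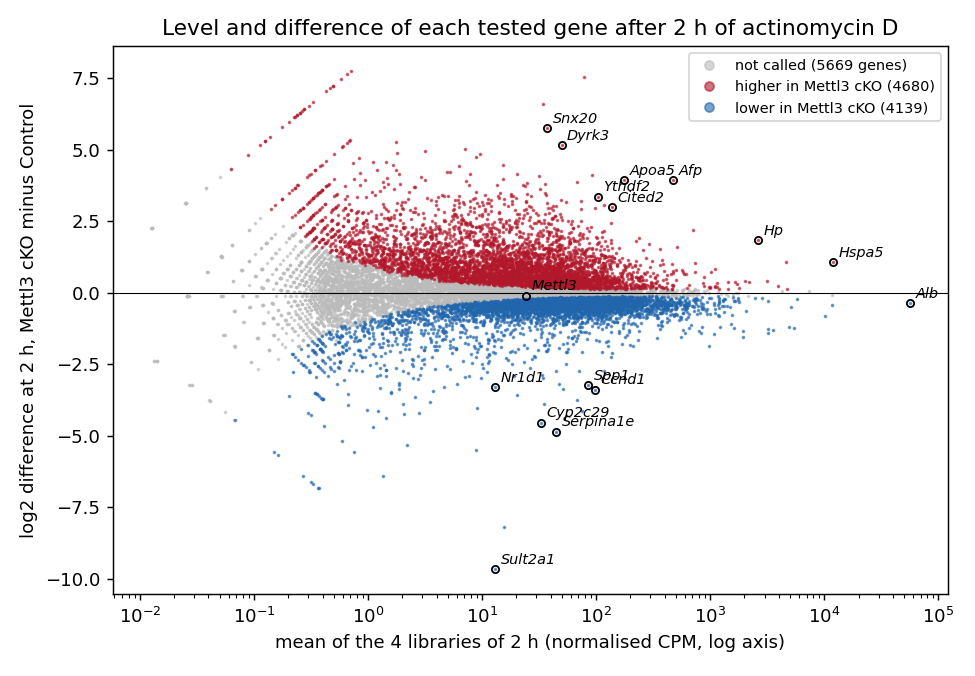
Each point is 1 of the 14488 tested genes, with the mean of its 4 libraries of 2 h in normalised CPM on a log axis and its log2 difference, Mettl3 cKO minus Control, on the vertical axis. The 4680 genes higher in Mettl3 cKO reach further from 0 than the 4139 lower ones over most of the range of levels, while Mettl3 itself lies near 0 (-0.11).

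The mRNAs most enriched in Mettl3 cKO at 2 h, among named genes with a mean of at least 10 normalised CPM, were Snx20, Dyrk3, Ddit4l, Lcmt2, Sema7a, Apoa5, Afp, Urgcp, Brf2, Igfals, Tlr4 and Mad2l1bp. They were picked for the size of this difference, and their values are a description. Snx20, a sorting nexin, had 68.9 and 78.0 normalised CPM in the Mettl3 cKO libraries, against 1.23 and 1.49 in the Control libraries, a log2 difference of 5.75 ± 0.15. Below, the value in parentheses after the levels of a gene is this log2 difference, Mettl3 cKO minus Control, ± SE, and a change is the difference at 2 h minus that at 0 h. Dyrk3, a dual-specificity kinase known for dissolving stress granules, had 95.0 and 99.0 in Mettl3 cKO, against 3.06 and 2.34 in Control (5.16 ± 0.12). Ddit4l, a relative of the mTOR inhibitor Redd1, had 26.9 and 31.9 in Mettl3 cKO, against 1.29 and 1.37 in Control (4.46 ± 0.17). The difference was 4.20, 2.19 and 2.61 in these 3 genes at 0 h already, in the same order, and the change 1.56, 2.97 and 1.85. Lcmt2, a methyltransferase of the wybutosine pathway of tRNA modification, had 37.4 and 39.4 in Mettl3 cKO, against 1.61 and 2.69 in Control (4.17 ± 0.15, change 2.55). Brf2, a factor of RNA polymerase III initiation, had 43.8 and 48.6 in Mettl3 cKO, against 2.79 and 3.66 in Control (3.84 ± 0.12, change 2.28). Mad2l1bp, which silences the spindle checkpoint, had 42.8 and 42.6 in Mettl3 cKO, against 3.27 and 2.97 in Control (3.77 ± 0.12, change 2.13). Urgcp had 125 and 129 in Mettl3 cKO, against 8.32 and 9.03 in Control (3.87 ± 0.09, change 2.04).

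Several of the 12 encode secreted or surface proteins. Apoa5, an apolipoprotein that lowers plasma triglycerides, had 322 and 336 normalised CPM in the Mettl3 cKO libraries, against 23.1 and 19.8 in the Control libraries (3.94 ± 0.07), with 20.8% of its exon bases shared with Gm47544 on the other strand. Afp, the fetal counterpart of albumin, had 911 and 876 in Mettl3 cKO, against 57.7 and 59.1 in Control (3.93 ± 0.06). Igfals, which carries insulin-like growth factors in plasma, had 68.3 and 66.1 in Mettl3 cKO, against 5.10 and 4.51 in Control (3.80 ± 0.14). All 3 are made by hepatocytes. Tlr4, the receptor of bacterial lipopolysaccharide, had 28.5 and 21.7 in Mettl3 cKO, against 1.82 and 1.83 in Control (3.78 ± 0.17, change 1.93). Sema7a, a membrane-anchored semaphorin, had 60.2 and 60.1 in Mettl3 cKO, against 3.60 and 3.54 in Control (4.07 ± 0.11). At 0 h the difference was already 4.33 in Apoa5, 3.93 in Afp, 3.25 in Igfals and 3.92 in Sema7a. Of these genes only Apoa5 had a called change, and its difference fell (-0.39). The pseudogenes Gm8730 and Gm9625, left out by the rule on names, showed still larger differences and were looked at after their values were seen. Gm8730 had 157 and 156 in Mettl3 cKO, against 0.590 and 1.09 in Control (7.55 ± 0.14) and Gm9625 had 65.6 and 69.4 in Mettl3 cKO, against 0.376 and 1.03 in Control (6.59 ± 0.19), with differences of 7.32 and 6.65 already at 0 h. Reads of such copies may be split with their parent genes.

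The 12 genes named for the largest negative differences were picked in the same way. Sult2a1, a sulfotransferase of steroids and bile acids, had 1 read in the 2 Mettl3 cKO libraries together, against 940 in the 2 Control libraries, a ratio of Control over Mettl3 cKO of 1031 with an exact 95% counting interval of 185 to 40747. Its paralogue Sult2a2 had 0.203 and 0 in Mettl3 cKO, against 31.3 and 31.3 in Control (-8.19 ± 0.29). The 2 genes are near copies, and the counting of unique reads may split them. Serpina1e, an alpha-1 antitrypsin of a cluster of near copies, had 2.49 and 3.41 normalised CPM in the Mettl3 cKO libraries, against 84.9 and 87.5 in the Control libraries (-4.86 ± 0.12). The P450 gene Cyp2c29 had 2.70 and 2.71 in Mettl3 cKO, against 63.9 and 62.5 in Control (-4.55 ± 0.12). Another, Cyp2a12, had 7.73 and 8.42 in Mettl3 cKO, against 134 and 149 in Control (-4.13 ± 0.11). Akr1c18, which inactivates progesterone, had 4.53 and 4.11 in Mettl3 cKO, against 61.2 and 68.9 in Control (-3.91 ± 0.11). Uroc1 (histidine breakdown) had 3.00 and 3.31 in Mettl3 cKO, against 39.7 and 35.9 in Control (-3.58 ± 0.13). Uox, urate oxidase, had 8.95 and 9.22 in Mettl3 cKO, against 93.5 and 93.7 in Control (-3.36 ± 0.10). At 0 h Sult2a1 had 0 and 0 in Mettl3 cKO, against 17.8 and 18.2 in Control. The difference at 0 h was -9.50 in Sult2a2, -4.83 in Serpina1e, -4.50 in Cyp2c29 and -4.02 in Cyp2a12. It was -4.17 in Akr1c18, -3.43 in Uroc1 and -3.24 in Uox, and no change was called in any of these genes.

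The other 4 genes of this group are no metabolic enzymes. Ccnd1, the cyclin that starts G1 progression, had 17.0 and 17.1 normalised CPM in the Mettl3 cKO libraries, against 180.0 and 179 in the Control libraries (-3.40 ± 0.07). Spp1, osteopontin, had 16.1 and 16.8 in Mettl3 cKO, against 149.5 and 160.2 in Control (-3.23 ± 0.08). Fbln2, a fibulin of the extracellular matrix, had 9.76 and 8.72 in Mettl3 cKO, against 129 and 123 in Control (-3.77 ± 0.09). In these 3 the difference at 0 h was -3.08, -3.21 and -3.33, and the change was called in Ccnd1 (-0.32, adjusted p = 0.022) and Fbln2 (-0.44, adjusted p = 0.017), though not when libraries were scaled to total counts. Nr1d1, the clock repressor Rev-erb alpha, had 2.75 and 2.00 in Mettl3 cKO, against 25.6 and 21.8 in Control (-3.32 ± 0.16), where at 0 h its difference was -0.67. Reads from the other strand may enter Ccnd1 (23.4% of its exon bases), and Spp1 shares 18.8% of its exon bases with Gm42793 on the same strand.

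**Figure D2:**
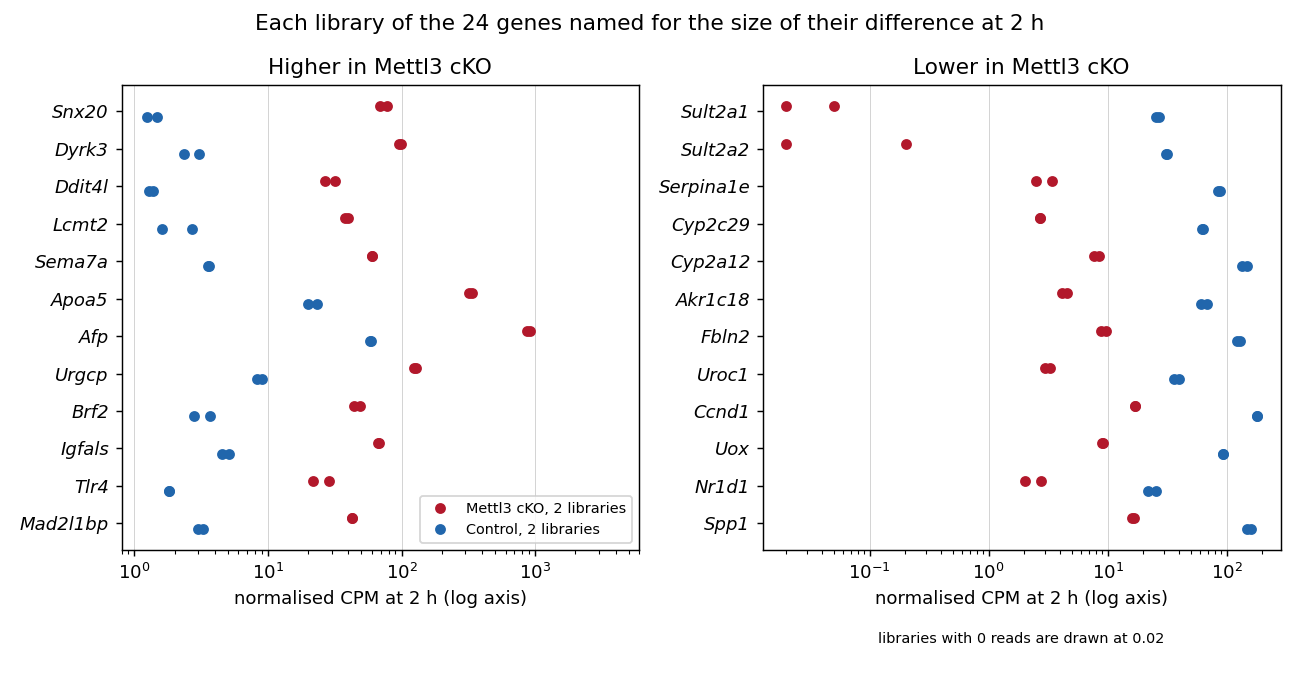
Levels at 2 h in normalised CPM on log axes, 1 point for each of the 2 Mettl3 cKO and 2 Control libraries, for the 12 genes named for the largest positive (left) and the 12 named for the largest negative difference (right). The 2 libraries of a genotype lie close together and the genotypes apart, from Snx20 (68.9 and 78.0 against 1.23 and 1.49) to Spp1 (16.1 and 16.8 against 149.5 and 160.2).

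Most of what differed at 2 h differed before the drug. At 0 h, 4286 genes (29.6%) were higher and 3691 (25.5%) lower. Of the genes higher at 2 h, 3517 were also higher at 0 h (75.1% of those at 2 h and 82.1% of those at 0 h), and of the genes lower at 2 h, 3085 were also lower at 0 h (74.5% and 83.6%). Another 1093 higher and 1040 lower genes were called at 2 h and not at 0 h, 70 were higher at 2 h and lower at 0 h, and 14 the reverse. The change of the difference itself, tested as the interaction of genotype and time, was called for 1983 genes (13.7%), of which 1513 rose (10.4%) and 470 fell (3.24%) relative to Control. Among the 1513, 1431 were higher in Mettl3 cKO at 2 h, and their median difference was 1.20 at 2 h, against 0.40 at 0 h over all 1513. Among the 470, 352 were lower at 2 h and 48 were still higher, with a median of -0.47 at 2 h, against -0.086 at 0 h. The number that rose was 1489 without the 6 h libraries. The number that fell rests on the fit: it was 995 without the 6 h libraries, 1076 and 1073 without Control 6 h replicate 1 or 2, and 242 to 312 without Control 0 h replicate 2, Mettl3 cKO 0 h replicate 1 or any 1 of the 4 libraries of 2 h.

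**Figure D3:**
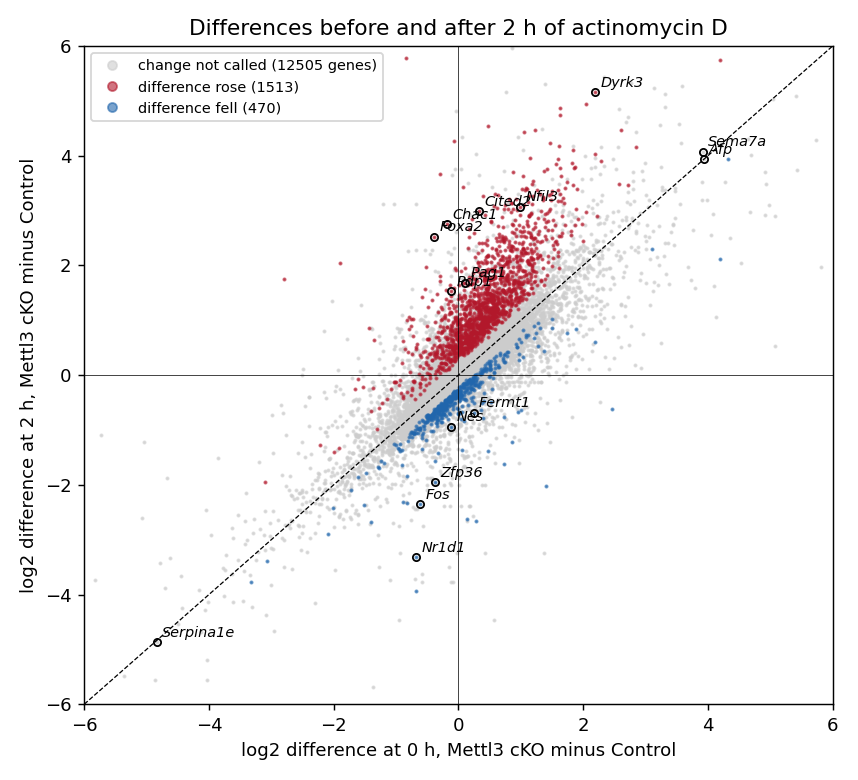
Log2 difference of each tested gene, Mettl3 cKO minus Control, at 2 h (vertical) against 0 h (horizontal), with axes ending at 6 on either side, and the dashed line where both are equal. Afp and Sema7a lie near the line, Dyrk3, Nfil3, Cited2 and Chac1 far above it, and Nr1d1, Fos and Zfp36 below it, among 1513 genes whose difference rose and 470 whose difference fell.

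Of the genes whose difference rose, 401 were higher at 2 h and not called at 0 h, and 236 of these had a mean of at least 10 normalised CPM at 2 h and were not predicted genes. The 10 of the 236 with the largest change are given here, and genes of lower level could change more (Ier5l, below). Pag1, an adaptor that holds the kinase Csk at the membrane, had 17.3 and 18.7 normalised CPM in the Mettl3 cKO libraries, against 5.69 and 5.54 in the Control libraries at 2 h, while at 0 h it had 24.2 and 25.5 in Mettl3 cKO, against 21.9 and 24.1 in Control. Its difference was 1.68 ± 0.13 at 2 h, a change of 1.57 ± 0.16. Cttnbp2nl, a relative of the cortactin-binding Cttnbp2, had 47.9 and 47.2 in Mettl3 cKO, against 15.6 and 15.0 in Control at 2 h and 95.5 and 84.9 in Mettl3 cKO, against 84.8 and 77.5 in Control at 0 h (change 1.48). In both genes Control lost most of its share within 2 h and Mettl3 cKO far less. Pdp1, the phosphatase that activates pyruvate dehydrogenase, had 15.8 and 14.6 in Mettl3 cKO, against 4.72 and 5.83 in Control at 2 h (change 1.65). Pik3r1, the regulatory subunit of PI3-kinase, had 42.9 and 43.2 in Mettl3 cKO, against 14.5 and 14.9 in Control (change 1.46). Tob2, a partner of the Ccr4-Not deadenylase, had 23.1 and 22.5 in Mettl3 cKO, against 9.23 and 7.998 in Control (change 1.36). The others were the zinc finger gene Zfp322a (1.65), the ATR activator Etaa1 (1.46), the ubiquitin ligases Rnf144b (1.37) and Rnf19a (1.36), and the transposase-derived Harbi1 (1.34). Adjusted p-values of the change ran from 3.9e-10 to 4.0e-06.

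Of the genes whose difference fell, 137 were lower at 2 h and not called at 0 h, 118 of them above the same limits, and the 10 largest changes of the 118 were smaller in size than those of the 10 above. The cytoskeletal gene Nes had 30.2 and 31.2 normalised CPM in the Mettl3 cKO libraries, against 56.1 and 61.9 in the Control libraries at 2 h, and 50.2 and 46.2 in Mettl3 cKO, against 50.03 and 55.1 in Control at 0 h, a change of -0.82 ± 0.11. Fermt1, kindlin-1, had 11.5 and 12.03 in Mettl3 cKO, against 19.05 and 18.9 in Control at 2 h (change -0.93). Sox9, a factor of bile duct cells, had 8.85 and 6.66 in Mettl3 cKO, against 12.7 and 12.9 in Control (change -0.58). The clock gene Per1 had 8.14 and 8.07 in Mettl3 cKO, against 11.6 and 12.5 in Control (change -0.63). The remaining 6 were Phykpl (-0.75), Cd40 (-0.70), Gnas (-0.68), Anks3 (-0.58), the smooth muscle gene Smtn (-0.57) and the antiviral Ifitm2 (-0.54), of which Gnas and Ifitm2 share 22.0% and 40.9% of their exon bases with other genes. Adjusted p-values of the change ran from 7.3e-06 to 0.032, and the call was lost without 1 library in Gnas (-0.54 without Control 2 h replicate 2), Per1 (-0.49 without Mettl3 cKO 0 h replicate 1 and -0.59 without Control 2 h replicate 2), and, for any of several libraries of 0 and 2 h, in Anks3 (-0.55 to -0.44), Sox9 (-0.60 to -0.40) and Ifitm2 (-0.58 to -0.38). The calls of Ifitm2 and Sox9 were also lost by DESeq2, and that of Ifitm2 when libraries were scaled to total counts or the ribosomal protein mRNAs. When libraries were scaled to the mitochondrially encoded mRNAs the difference at 2 h turned positive in all of these 10 but Nes.

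Some of the genes that write, erase and read m6A differed between the genotypes. Of this list, 11 of 22 tested members were higher and 5 lower (all genes: 32.3% and 28.6%), with a median of 0.19, and between 0 and 2 h 9 rose and 0 fell (2 fell at an unadjusted p under 0.05, and 0 by DESeq2). Of all genes 10.4% rose and 3.24% fell, and these shares are the background of every list below. Ythdf2, the reader that recruits deadenylases, had 188 and 188 normalised CPM in the Mettl3 cKO libraries, against 17.5 and 19.2 in the Control libraries, a difference of 3.36 ± 0.07 and a change since 0 h of 1.86 ± 0.09. Its paralogue Ythdf1 had 183 and 181 in Mettl3 cKO, against 43.1 and 39.8 in Control (2.14 ± 0.06, change 0.98). At 0 h Ythdf2 had 201 and 197 in Mettl3 cKO, against 70.6 and 69.9 in Control, so that its share was nearly the same at both times in Mettl3 cKO and mostly lost by 2 h in Control. Of the writer complex, Rbm15 had 67.8 and 63.6 in Mettl3 cKO, against 14.6 and 15.4 in Control (2.13 ± 0.09, change 1.32). Another subunit, Cbll1, had 8.65 and 9.22 in Mettl3 cKO, against 3.81 and 2.91 in Control (1.40 ± 0.17, change 0.98).

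A list of 13 mRNAs holds those on which m6A was assayed by m6A-RIP-qPCR in liver tissue, not in these libraries. All but Onecut1 passed the filter. Of 12, 8 were higher and 1 lower, with a median of 0.57 against 0.033 for all genes, and the difference of 5 rose (7 at an unadjusted p under 0.05) and of 0 fell (0 by either the unadjusted p or DESeq2). Cited2, a transcriptional coactivator needed for fetal liver growth, had 244 and 242 normalised CPM in the Mettl3 cKO libraries, against 32.3 and 29.0 in the Control libraries at 2 h, and 549.8 and 551 in Mettl3 cKO, against 450.4 and 424 in Control at 0 h. Its difference was 2.99 ± 0.06 at 2 h and 0.33 at 0 h, a change of 2.65 ± 0.08. A small gap at 0 h was thus the widest of the list at 2 h. Cebpa, a factor of hepatocyte identity, had 43.3 and 44.4 in Mettl3 cKO, against 22.2 and 21.2 in Control (1.02 ± 0.11). The deacetylase Sirt1 had 22.1 and 17.6 in Mettl3 cKO, against 10.5 and 9.37 in Control (1.00 ± 0.12). Apof had 254 and 269 in Mettl3 cKO, against 129.5 and 132 in Control (1.00 ± 0.06). Sirt1 differed by 0.00 at 0 h (change 1.00), whereas Apof was as far apart before the drug (1.07). Hnf4a, a master regulator of hepatocytes, was the lower one, with 27.3 and 29.4 in Mettl3 cKO, against 41.4 and 34.0 in Control (-0.41 ± 0.10, adjusted p = 7.0e-04). Its difference at 0 h was -0.38, and the change over the 2 h was -0.03 ± 0.14 (adjusted p = 0.93). The Hnf4a call at 2 h was lost without Control 2 h replicate 1 (-0.27, adjusted p = 0.0505). For Ppara (0.38 ± 0.22, adjusted p = 0.14) and Onecut2 (0.05 ± 0.07) no difference was called.

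Liver transcription factors as a wider list stood further towards Mettl3 cKO, with a median of 0.82. Of 32 tested members 20 were higher and 3 lower (62.5% and 9.38%, against 32.3% and 28.6% of all genes). Between 0 and 2 h 17 rose and 0 fell (0 fell by the unadjusted p and by DESeq2), against 10.4% and 3.24% of all genes. The 3 Foxa pioneer factors were among the 4 with the largest differences. Foxa1 had 25.5 and 25.3 normalised CPM in the Mettl3 cKO libraries, against 2.31 and 2.86 in the Control libraries (3.30 ± 0.13, change 1.81). Foxa3 had 20.04 and 18.1 in Mettl3 cKO, against 2.74 and 3.60 in Control (2.59 ± 0.15, change 1.71). Foxa2 had 6.51 and 5.91 in Mettl3 cKO, against 1.502 and 0.628 in Control (2.52 ± 0.26), although at 0 h it was lower in Mettl3 cKO (-0.39, change 2.91 ± 0.31). All 3 were left at under 4 normalised CPM in Control.

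Signalling genes with short-lived mRNAs moved in both directions. Of the immediate early and AP-1 genes, which are switched on within minutes of a stimulus, 14 of 27 tested members were higher and 6 lower (51.9% and 22.2%). Between 0 and 2 h 14 rose and 8 fell. Of all genes 32.3% were higher and 28.6% lower, and 10.4% rose and 3.24% fell. Fos had 0.610 and 0.702 normalised CPM in the Mettl3 cKO libraries, against 3.92 and 2.80 in the Control libraries (-2.35 ± 0.31, change -1.73). Fosb had 1.07 and 1.00 in Mettl3 cKO, against 4.99 and 5.31 in Control (-2.31 ± 0.26, change -1.43). Zfp36, whose protein destroys AU-rich mRNAs, had 3.81 and 5.21 in Mettl3 cKO, against 18.1 and 16.9 in Control (-1.96 ± 0.18, change -1.57). These 3 were the lower ones among the 4 named, and Ier5l was higher at 1.32 and 0.952 in Mettl3 cKO, against 0.161 and 0.229 in Control (2.51 ± 0.53, change 2.34). Ier5l, Fos and Fosb did not exceed 5.31 normalised CPM in any library of 2 h, a level at which few reads are counted, and the call of the change in Ier5l was lost without Control 2 h replicate 1 (2.10) or Mettl3 cKO 2 h replicate 1 (2.07). The feedback inhibitors of signalling were mostly higher, as 19 of 26 tested members were higher and 2 lower (73.1% and 7.69%), with a median of 0.90. Of them 12 rose and 2 fell. Errfi1, which blocks the EGF receptor, had 346 and 352 normalised CPM in the Mettl3 cKO libraries, against 104 and 93.6 in the Control libraries (1.82 ± 0.06, change 1.46 ± 0.08). Spry4, an inhibitor of the Ras pathway, had 9.56 and 10.02 in Mettl3 cKO, against 1.34 and 1.31 in Control (2.88 ± 0.18, change 2.19). Bambi, a decoy receptor of TGF-beta, had 3.51 and 2.96 in Mettl3 cKO, against 0.537 and 0.571 in Control (2.53 ± 0.33, change 1.83). Cish, a Stat5 target that dampens cytokine signals, was as far apart at 0 h (2.25) as at 2 h (2.03 ± 0.20).

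Other pathways are given beside the 32.3% higher and 28.6% lower of all genes. Of the TGF-beta and Smad targets, 8 of 21 tested members were higher and 2 lower (38.1% and 9.52%), with Smad7, the inhibitory Smad, at 16.2 and 16.6 in Mettl3 cKO, against 4.94 and 5.199 in Control (1.70 ± 0.14, change 0.76), and Skil (1.40) and Ski (0.77), corepressors of Smads. Of the Yap and Wnt pathway, 15 of 28 tested members were higher and 6 lower (53.6% and 21.4%), with Fzd5, a Wnt receptor, at 23.9 and 24.4 in Mettl3 cKO, against 7.35 and 5.60 in Control (1.89 ± 0.13, change 1.30), and Znrf3, which removes such receptors, at 27.2 and 27.0 in Mettl3 cKO, against 8.10 and 10.5 in Control (1.55 ± 0.11, change 1.01). Of the Notch pathway, 4 of 15 tested members were higher and 0 lower (26.7% higher, and 1 lower at an unadjusted p under 0.05, 0 by DESeq2), namely the coactivator Maml1 (1.54), Notch2 (1.20), Notch1 (0.67) and the DNA-binding Rbpj (0.51). Of the growth factor receptors and IGF axis, 12 of 21 tested members were higher and 5 lower (57.1% and 23.8%), with the hormone Igf1 at 45.2 and 40.8 in Mettl3 cKO, against 188 and 177 in Control (-2.09 ± 0.07) on one side and Erbb3 at 65.9 and 60.8 in Mettl3 cKO, against 19.1 and 19.7 in Control (1.71 ± 0.08) on the other. Igf1 and its carrier Igfals therefore lay at opposite ends. Of the circadian clock genes, 6 of 18 tested members were higher and 6 lower (33.3% each). Nfil3, a repressor that opposes Dbp, had 209 and 207 in Mettl3 cKO, against 23.7 and 25.8 in Control (3.07 ± 0.07, change 2.09 ± 0.09). Bhlhe40 had 100.2 and 100.1 in Mettl3 cKO, against 29.7 and 25.7 in Control (1.85 ± 0.07, change 1.62), the reverse of Nr1d1 (change -2.64).

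Stress programmes gave different counts. Of all genes 32.3% were higher and 28.6% lower, and 10.4% rose and 3.24% fell. Of the endoplasmic reticulum chaperones, 18 of 20 tested members were higher and 0 lower (0 lower also by the unadjusted p and by DESeq2), with a median of 0.61. Hspa5, the main chaperone BiP, had 16413 and 15836 normalised CPM in the Mettl3 cKO libraries, against 7487 and 7902 in the Control libraries (1.07 ± 0.05). Manf had 602 and 627 in Mettl3 cKO, against 301 and 308 in Control (1.01 ± 0.05). Dnajb9 had 384 and 370.2 in Mettl3 cKO, against 132 and 136 in Control (1.49 ± 0.05). The excess of this list was mostly there before the drug, and 2 rose and 0 fell between 0 and 2 h (2 fell at an unadjusted p under 0.05, 0 by DESeq2). The 2 that rose were Dnajb9 (0.40) and the transcription factor Xbp1 (0.59). Of the integrated stress response, 11 of 22 tested members were higher and 7 lower (50% and 31.8%), and 11 rose and 0 fell (0 fell by the unadjusted p and by DESeq2). Chac1, which breaks down glutathione, had 60.9 and 64.2 normalised CPM in the Mettl3 cKO libraries, against 9.66 and 8.86 in the Control libraries at 2 h (2.75 ± 0.09), and 108 and 109 in Mettl3 cKO, against 128 and 119 in Control at 0 h (-0.19), a change of 2.94 ± 0.12. Trib3, an inhibitor of Akt and Atf4, had 364 and 386 in Mettl3 cKO, against 97.6 and 103 in Control (1.90 ± 0.06, change 1.30). Cebpb had 90.9 and 105 in Mettl3 cKO, against 21.6 and 22.9 in Control (2.14 ± 0.12, change 1.37). The hormone Fgf21 went the other way, with 0.509 and 0.150 in Mettl3 cKO, against 1.72 and 1.43 in Control (-2.24 ± 0.49) and no called change (0.35).

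Of the heat shock chaperones, 6 of 17 tested members were higher and 9 lower (35.3% and 52.9%, against 32.3% and 28.6% of all genes). Dnajb1, the partner of Hsp70, had 97.0 and 105 in Mettl3 cKO, against 18.7 and 19.5 in Control (2.40 ± 0.09, change 1.38). Dnajb4 had 28.5 and 25.5 in Mettl3 cKO, against 14.8 and 14.7 in Control (0.87 ± 0.10), with a difference of -0.24 at 0 h. Hspa1b, an inducible Hsp70 with a near copy in Hspa1a, was closer to Control at 2 h (0.86 ± 0.09) than at 0 h (1.505). Of the p53 targets and apoptosis genes, 23 of 32 tested members were higher and 4 lower (71.9% and 12.5%), with a median of 0.65. Of them 8 rose and 1 fell, against 10.4% and 3.24% of all genes. Phlda3, an inhibitor of Akt, had 117 and 116 in Mettl3 cKO, against 23.3 and 22.6 in Control (2.34 ± 0.08), and the death receptor Fas had 13.5 and 12.5 in Mettl3 cKO, against 2.52 and 3.48 in Control (2.11 ± 0.17), both nearly as far apart at 0 h (2.03 and 2.06). Btg2 had 57.4 and 60.1 in Mettl3 cKO, against 16.3 and 14.9 in Control (1.91 ± 0.08), of which 1.35 arose over the 2 h. Of the interferon-stimulated genes, 19 of 38 tested members were higher and 8 lower (50% and 21.1%, against 32.3% and 28.6% of all genes). Iigp1, a GTPase of cell-autonomous immunity, had 174 and 171 in Mettl3 cKO, against 21.9 and 22.6 in Control (2.95 ± 0.07). Isg15 had 208 and 246 in Mettl3 cKO, against 39.6 and 43.2 in Control (2.45 ± 0.08). Oasl1 had 114 and 122 in Mettl3 cKO, against 26.0 and 29.3 in Control (2.09 ± 0.08). The changes of these 3 were not called (0.04, 0.21 and 0.23). Rtp4 had 41.1 and 40.7 in Mettl3 cKO, against 6.55 and 5.77 in Control (2.73 ± 0.11, change 1.02).

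Genes of mature liver metabolism were mostly lower, and few of their differences changed over the 2 h. Of all genes 32.3% were higher and 28.6% lower. Of the cytochrome P450 and conjugation enzymes, 5 of 69 tested members were higher and 50 lower, with a median of -1.20, and 1 rose and 1 fell. Of the urea cycle and amino acid breakdown genes, 2 of 37 tested members were higher and 29 lower, with a median of -1.20, and 0 rose and 3 fell (0 rose by the unadjusted p and by DESeq2). Otc, which makes citrulline, had 10.1 and 10.3 normalised CPM in the Mettl3 cKO libraries, against 47.9 and 48.0 in the Control libraries (-2.23 ± 0.10). Gnmt, which uses up methyl donor, had 15.4 and 17.1 in Mettl3 cKO, against 93.9 and 90.2 in Control (-2.50 ± 0.09). Haao of tryptophan breakdown had 1.58 and 1.30 in Mettl3 cKO, against 8.53 and 9.77 in Control (-2.66 ± 0.23). None of the 3 changed by a called amount since 0 h (-0.04, -0.05 and 0.75). Of the glucose production and glycogen genes, 1 of 19 tested members were higher and 11 lower. Khk, ketohexokinase, had 22.3 and 23.9 in Mettl3 cKO, against 81.0 and 78.4 in Control (-1.79 ± 0.08). The higher one was Ppp1r3b, which targets a phosphatase to glycogen, with 9.82 and 10.5 in Mettl3 cKO, against 1.34 and 1.31 in Control (2.93 ± 0.20, change 1.94).

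Secreted liver proteins and lipid genes were split, beside the 32.3% higher and 28.6% lower of all genes. Of the plasma proteins, 11 of 41 tested members were higher and 26 lower, with C9 of complement at 2.75 and 2.91 in Mettl3 cKO, against 18.7 and 16.8 in Control (-2.65 ± 0.16), Azgp1 at 54.8 and 54.3 in Mettl3 cKO, against 193 and 204 in Control (-1.87 ± 0.06) and Apoc3, which slows triglyceride clearance, at 43.6 and 52.4 in Mettl3 cKO, against 151 and 154 in Control (-1.67 ± 0.09). Of the acute phase proteins, 8 of 19 tested members were higher and 9 lower. Haptoglobin, Hp, had 4069 and 4212 normalised CPM in the Mettl3 cKO libraries, against 1146 and 1187 in the Control libraries (1.83 ± 0.06), whereas Lcn2, which binds bacterial siderophores, had 957 and 978 in Mettl3 cKO, against 2235 and 2290.5 in Control (-1.23 ± 0.06). These abundant proteins of the same response thus lay on opposite sides. Of the fatty acid oxidation and ketone synthesis genes, 7 of 30 tested members were higher and 17 lower, with the thiolases Acaa1b (-1.84) and Acaa2 (-1.10) lower and the peroxisomal Ehhadh (1.24) higher. Of the lipid synthesis and storage genes, 7 of 31 tested members were higher and 17 lower, with the desaturase Scd1 at 21.1 and 21.0 in Mettl3 cKO, against 94.2 and 85.4 in Control (-2.09 ± 0.08) and the fatty acid carrier Fabp1 at 12.1 and 12.4 in Mettl3 cKO, against 49.0 and 49.9 in Control (-2.02 ± 0.11), against Acacb (2.07) and the fatty acid transporter Cd36 (1.64). Of the cholesterol synthesis and uptake genes, 11 of 28 tested members were higher and 8 lower (39.3% and 28.6%), with a median of 0.07. Of the bile acid synthesis and transport genes, 4 of 17 tested members were higher and 8 lower, among them the efflux pumps Abcc3 (1.08) and Abcb11 (-1.07).

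**Figure D4:**
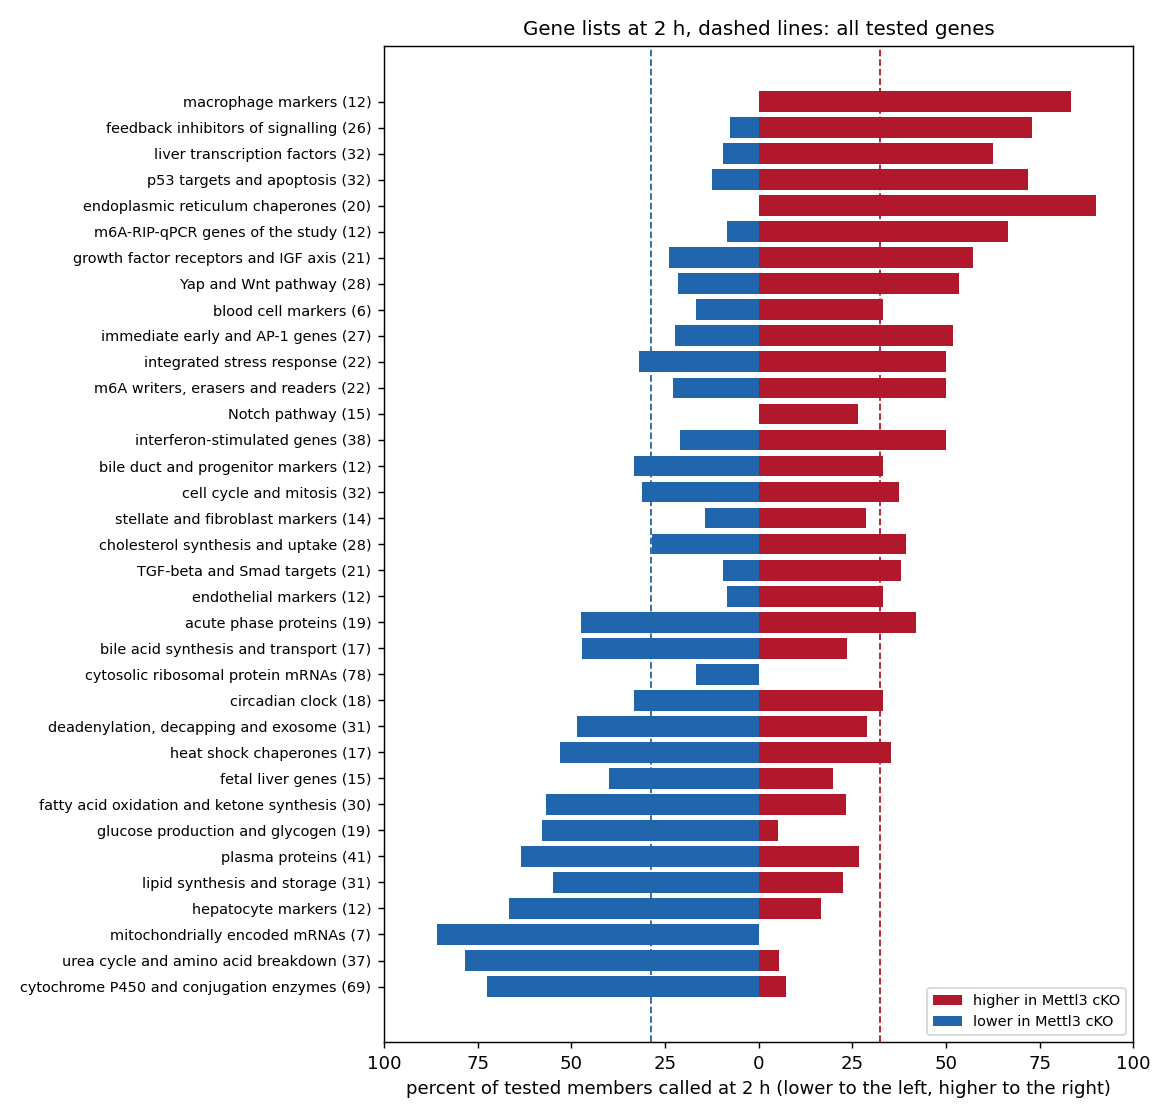
For each gene list, the percent of its tested members (number in brackets) that were higher in Mettl3 cKO at 2 h (to the right) or lower (to the left), ordered by the list's median difference. Dashed lines mark all 14488 tested genes (32.3% and 28.6%), which the endoplasmic reticulum chaperones (18 of 20 higher) and the cytochrome P450 and conjugation enzymes (50 of 69 lower) exceed, while the cytosolic ribosomal protein mRNAs have 0 of 78 higher on the TMM scale (7 on that of total counts).

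Of the deadenylation, decapping and exosome genes, 9 of 31 tested members were higher and 15 lower (29.0% and 48.4%, against 32.3% and 28.6% of all genes). Tob1, a partner of the deadenylase like Tob2, had 47.4 and 46.9 in Mettl3 cKO, against 16.6 and 15.2 in Control (1.57 ± 0.08, change 1.11). The decapping subunit Dcp1a had 11.8 and 9.87 in Mettl3 cKO, against 6.71 and 4.91 in Control (0.90 ± 0.15). The nuclear exosome subunit Exosc10 had 71.1 and 72.8 in Mettl3 cKO, against 124 and 124 in Control (-0.79 ± 0.07). Of the cytosolic ribosomal protein mRNAs, 0 of 78 tested members were higher and 13 lower, with a median of -0.07 (0 higher also by the unadjusted p and by DESeq2, but 7 higher and 7 lower scaled to total counts, and 77 higher and 0 lower scaled to the mitochondrially encoded mRNAs), and 0 rose or fell (5 and 7 at an unadjusted p under 0.05, 0 and 0 by DESeq2). Rplp0, for example, had 1116 and 1124 in Mettl3 cKO, against 1508 and 1566 in Control (-0.46 ± 0.05). Of the 13 mitochondrially encoded mRNAs, 7 passed the filter and 5 were listed at 0 reads at 2 h, and 6 of the 7 were lower (median -0.82, 0 higher by any of the 3 tests). mt-Co1, of complex IV, had 7503 and 7138 normalised CPM in the Mettl3 cKO libraries, against 12944 and 12928 in the Control libraries (-0.82 ± 0.07), and mt-Nd5, of complex I, had 1846 and 1666 in Mettl3 cKO, against 4798 and 4621 in Control (-1.42 ± 0.09). Their share was lower already at 0 h (-0.55 and -1.07). Of the cell cycle and mitosis genes, 12 of 32 tested members were higher and 10 lower (37.5% and 31.3%, against 32.3% and 28.6% of all genes), with the proliferation marker Mki67 at 88.1 and 86.2 in Mettl3 cKO, against 52.5 and 46.5 in Control (0.82 ± 0.08) beside the lower Ccnd1. Of the fetal liver genes, 3 of 15 tested members were higher and 6 lower, with Afp and Gpc3 (1.09) on the higher side and the imprinted H19 (-1.56) and Igf2 (-1.23, 64.5% of its exon bases shared with other genes) on the lower.

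Marker lists describe the cells behind these values, and their counts stand beside the 32.3% higher and 28.6% lower of all genes. All 12 hepatocyte markers were detected and tested, and their summed level was 61261 and 61489 normalised CPM in the Mettl3 cKO libraries, against 72463 and 74740 in the Control libraries, with 2 higher and 8 lower. Ass1 had 98.2 and 96.2 in Mettl3 cKO, against 273 and 272 in Control (-1.49 ± 0.06) and Ttr 485 and 538 in Mettl3 cKO, against 1163 and 1197 in Control (-1.21 ± 0.07), while Alb was at 49421 and 49039.7 in Mettl3 cKO, against 62791 and 64862 in Control (-0.37 ± 0.05). The hepatocyte label thus held for both genotypes. Macrophage markers summed to 638 and 645 in Mettl3 cKO, against 419 and 450 in Control, with 10 of 12 tested higher (0 lower by any of the 3 tests). The complement genes C1qb (1.14) and C1qc (1.12), Cd68 (1.03) and the Kupffer cell lectin Clec4f at 27.0 and 29.7 in Mettl3 cKO, against 14.5 and 13.9 in Control (0.99 ± 0.12) led them. The difference in Clec4f at 0 h was 1.14. In bulk samples fewer cells of a type and less RNA per cell cannot be told apart, and cells that do not use the albumin promoter keep Mettl3. The part of these cells in Tlr4, Fas and the other genes above was not tested.

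Bile duct and progenitor markers summed to 647 and 663 in Mettl3 cKO, against 527 and 546 in Control, with 4 of 12 higher and 4 lower. These were 33.3% each, near the 32.3% and 28.6% of all genes. Spp1 was the lowest (-3.23), while Krt23 had 19.8 and 21.6 in Mettl3 cKO, against 3.97 and 3.94 in Control (2.38 ± 0.14). Stellate and fibroblast markers summed to 1098 and 1141 in Mettl3 cKO, against 1419 and 1434 in Control. Of 14, 4 were higher and 2 lower (28.6% and 14.3%), among them Acta2 (0.77) and Vim (-0.75). Endothelial markers summed to 239 and 287 in Mettl3 cKO, against 245 and 246 in Control, with 4 of 12 higher and 1 lower (33.3% and 8.33%). Blood cell markers summed to 19.2 and 21.1 in Mettl3 cKO, against 15.5 and 16.0 in Control, with Nkg7, Cd3e and Hbb-bt at 0 reads in all 4 libraries of 2 h, 2 of 6 tested higher and 1 lower.

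The difference at 2 h varied with the shape of a gene's transcript and with the speed of its loss in Control. Each gene was described by 1 transcript of the annotation, for 13291 of the 14488 genes, and the following medians are descriptions without a test. The median log2 difference was 0.64 for the 304 genes of 1 exon, 0.83 for 622 of 2 exons and 0.43 for 796 of 3 exons, and it was -0.05 for 2783 genes of 10 to 14 exons and -0.06 for 3481 of 15 or more. Genes of few exons thus had the higher medians. By the longest exon, the median was -0.22 for 1847 genes with none over 500 bases, 0.05 for 3703 genes with one over 1000 and up to 2000 bases, and 0.33 for 1433 genes with one over 4000 bases. Taken jointly, genes of 1 to 4 exons had a median of 0.01 with a longest exon up to 1000 bases (728 genes) and of 0.79 with one over 3000 bases (698 genes). Among genes of 10 or more exons the same step was from -0.18 to 0.14. The Spearman correlation with the difference at 2 h was -0.19 for the number of exons and 0.23 for the longest exon, across genes, which share the same 4 libraries. It was -0.23 for the mean level at 2 h, and the classes of few exons had lower levels, at 3.33 to 12.3 normalised CPM in the median for 1 to 4 exons, against 31.6 for 15 or more. The part of the level in these medians was not tested. At 0 h the median difference was 0.31, 0.39 and 0.25 for 1, 2 and 3 exons, against 0.003 for 15 or more. By the longest exon it was -0.15 at 0 h for none over 500 bases and 0.13 for one over 4000 bases. The Spearman correlation with the difference at 0 h was -0.10 for the number of exons and 0.14 for the longest exon. With the change it was -0.22 and 0.22. Part of these steps was thus there before the drug.

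Of the 12 genes with the largest positive differences 9 had at most 4 exons and 10 a longest exon over 1000 bases, against 1 and 4, in the same order, of the 12 with the largest negative differences and 20.8% and 65.6% of all 13291 genes. Both groups were picked by this same difference and are no separate support. Of the 10 genes named for the largest rise since 0 h, 4 had at most 4 exons and 10 a longest exon over 1000 bases. Of the 10 named for the largest fall, these numbers were 4 and 6. GGACT near the stop codon went with smaller steps, a median of 0.02 for 7972 genes with none, 0.07 for 3999 genes with 1, 0.13 for 1076 with 2 and 0.20 for 244 with 3 or more, of which most was there at 0 h (0.01 for none and 0.14 for 3 or more). GGAC per transcript showed a median of -0.12 for up to 2 occurrences (419 genes) and of 0.20 for over 20 (3126 genes), where at 0 h they were -0.17 and 0.16. It counts longer transcripts as well, and per 1000 bases it was -0.02 for the 2659 genes of the lowest class and 0.10 for the 2658 of the highest, out of 5 classes of equal size, with -0.06 and 0.13 at 0 h and a Spearman correlation of -0.06 with the change between 0 and 2 h. The steps by GGAC were thus there before the drug.

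How fast a transcript was lost in Control between 0 and 6 h went with the largest steps. Loss in Control also lowers the Control level at 2 h, so that part of these steps is built in. How large a part was not tested. For the 319 genes whose share fell by more than 3 on the log2 scale the median difference at 2 h was 1.01, with 71.2% higher and 6.90% lower. For 883 genes at -3 to -2 it was 0.91, for 4826 genes between -0.5 and 0.5 it was -0.04, and for 940 genes whose share rose by over 1 it was -0.31, with 14.04% higher and 57.3% lower. Taking the loss from the Mettl3 cKO libraries in place of Control, the medians were 0.18 for the 104 genes that fell by more than 3, 0.49 for 1404 genes at -2 to -1 and -0.25 for 174 genes that rose by over 1. The Control measure rests on the 2 Control libraries of 6 h that stood apart, and so sets cells that read as female against cells that read as male. The part of this in these medians was not tested. Within genes that fell by more than 1 in Control, the median was 1.17 for 1 to 4 exons (1017 genes) and 0.41 for 10 or more (1341 genes). Before the drug, at 0 h, the median difference was 0.38 for the 319 genes that fell by more than 3 in Control. It was -0.17 at 0 h for the 940 genes that rose by over 1 in Control, so that part of these steps was there already.

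**Figure D5:**
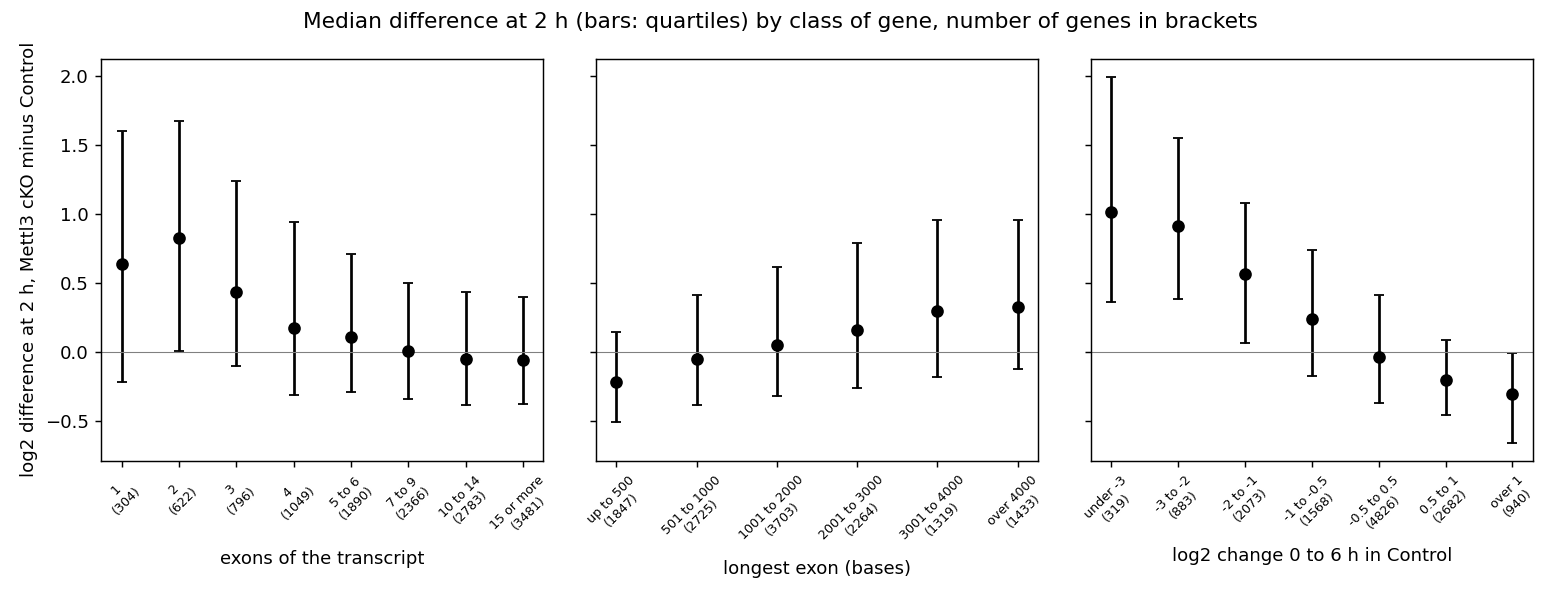
Median log2 difference at 2 h, Mettl3 cKO minus Control, with bars from the lower to the upper quartile over genes, by the number of exons, the length of the longest exon in bases and the log2 change of the gene's share between 0 and 6 h in Control, with the number of genes in brackets. The median is 0.64 for 1 exon, 0.83 for 2 exons and lower from there on (-0.06 for 15 or more), climbs with the longest exon (-0.22 to 0.33) and falls from the genes lost fastest in Control (1.01) to those that gained in share (-0.31). The classes by loss in Control are not independent of the difference at 2 h, which contains the Control level.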

How the data were processed

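RNA-seq of poly(A) RNA (1 µg, a library kit that does not mark strand, paired reads of 150 bases on NovaSeq) was made from cultured primary hepatocytes of Mettl3 cKO and Control mice at 0, 2 and 6 h of actinomycin D, with 2 libraries a group. Alignment by the authors was with STAR 2.5.3a against mm10, unique reads were assigned to genes with featureCounts 2.0.1, and the deposited values are these whole-number counts, not normalized. Their annotation release is not given in the sources read. The counts are shares of the remaining mRNA, since no spike-in is stated.

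The counts were tested with edgeR 4.0.16 (R 4.3.3, limma 3.58.1): low genes were removed by filterByExpr with the 6 groups (a count of at least 10 and a total of at least 15), TMM scaling, and the quasi-likelihood test on all 12 libraries, which share 1 estimate of the spread (6 residual degrees of freedom). The contrasts were Mettl3 cKO minus Control at 2 h, the same at 0 h, and the difference of both. P-values were adjusted over all 14488 tested genes by Benjamini-Hochberg at 0.05. The calls were also tested on simulated data, with the same spread for all genes and few genes changed. That setting differs from these data, so that it does not show how many of the calls here are false. Library totals at 2 h were 17830556 to 18795601 reads, so that genes of few reads carry the larger errors. Intervals and floors of 3 reads cover counting error only. Transcript features and sites were read from Gencode M21 and the GRCm38 genome, 1 transcript a gene.

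Named genes were Mettl3 and the genes of the m6A-RIP-qPCR list, the 12 genes a direction with the largest called difference at 2 h at a mean of at least 10 normalised CPM and with a symbol other than of a predicted gene, the 10 a direction with the largest called change that were called at 2 h and not at 0 h, and up to 4 members of each of 35 lists with the largest called difference. The members, lists and features were chosen with earlier results of these data known. Of these, some list members, mostly of few reads, are left out of the text, a few other genes under the rule are not reported here, and Alb was added as a defining marker. Other library scalings, filters, sets of libraries, DESeq2 1.42.0, a replicate block and leaving out each library were tried.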

Additional observations from a re-analysis of the deposited data

Results flagged for a closer look

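The genotype difference was not the same at 2 h as at 0 h, by the edgeR quasi-likelihood test of the difference itself (adjusted p under 0.05), for the genes below, which are all genes named in the report with a called change. Values are the log2 difference, Mettl3 cKO minus Control, at 2 h minus that at 0 h, from 2 libraries a group. Among these genes the largest positive changes were in Dyrk3 (2.97), Chac1 (2.94), Foxa2 (2.91), Cited2 (2.65), Lcmt2 (2.55), Ier5l (2.34), Brf2 (2.28), Spry4 (2.19), Mad2l1bp (2.13), Nfil3 (2.09) and Urgcp (2.04). Next came Ppp1r3b (1.94), Tlr4 (1.93), Ythdf2 (1.86), Ddit4l (1.85), Bambi (1.83), Foxa1 (1.81), Foxa3 (1.71), Pdp1 (1.65), Zfp322a (1.65), Bhlhe40 (1.62), Pag1 (1.57), Snx20 (1.56), Cttnbp2nl (1.48), Pik3r1 (1.46), Errfi1 (1.46), Etaa1 (1.46), Dnajb1 (1.38), Rnf144b (1.37), Cebpb (1.37), Rnf19a (1.36), Tob2 (1.36), Btg2 (1.35), Harbi1 (1.34), Rbm15 (1.32), Fzd5 (1.30) and Trib3 (1.30). Smaller positive changes were in Dnajb4 (1.11), Tob1 (1.11), Rtp4 (1.02), Znrf3 (1.01), Sirt1 (1.00), Ythdf1 (0.98), Cbll1 (0.98), Skil (0.88), Maml1 (0.81), Smad7 (0.76), Notch2 (0.69), Dcp1a (0.66), Cebpa (0.61), Xbp1 (0.59), Notch1 (0.42), Dnajb9 (0.40), Ski (0.39) and Erbb3 (0.38). Negative changes, where the share in Mettl3 cKO fell relative to Control, were in Nr1d1 (-2.64), Fos (-1.73), Zfp36 (-1.57), Fosb (-1.43), Fermt1 (-0.93), Nes (-0.82), Phykpl (-0.75), Cd40 (-0.70), Gnas (-0.68), Hspa1b (-0.64), Per1 (-0.63), Sox9 (-0.58), Anks3 (-0.58), Smtn (-0.57), Ifitm2 (-0.54), Cd68 (-0.47), Acta2 (-0.47), Fbln2 (-0.44), Apoa5 (-0.39), Igf1 (-0.36), Ccnd1 (-0.32) and Exosc10 (-0.31). Over all 14488 genes 1513 rose and 470 fell by the same test.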

How the results depend on the processing

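Of the genes that differed at 2 h, 4680 were higher in Mettl3 cKO and 4139 lower, and the counts moved by over 1.5 times only when libraries were scaled to the mitochondrially encoded mRNAs (11502 and 332) or when an absolute log2 difference over 1 was asked for (1994 and 679). Without 1 library they ranged between 4059 and 4706 higher and 3591 and 4441 lower. The DESeq2 Wald test called 4213 and 3783. Of the 1513 genes whose difference rose between 0 and 2 h, an absolute log2 change over 1 left 514, and 1132 to 1546 were called without 1 library. The count that fell, 470, moved most. It was 187 scaled to total counts, 122 to the ribosomal protein mRNAs and 17 to the mitochondrially encoded mRNAs, 186 among genes with at least 100 reads in every 2 h library, 995 with the 0 and 2 h libraries only, 219 by the DESeq2 Wald test, 29 with an absolute log2 change over 1, and 242 to 1076 without 1 library. The cause was not tested. Scaled to the mitochondrially encoded mRNAs, the difference at 2 h turned positive in Alb (0.54), Anks3 (0.46), Cd40 (0.37), Exosc10 (0.13), Fermt1 (0.23), Gnas (0.44), Hnf4a (0.50), Ifitm2 (0.21), Mettl3 (0.80), Per1 (0.34), Phykpl (0.41), Rplp0 (0.46), Smtn (0.31), Sox9 (0.19), Vim (0.16) and mt-Co1 (0.089), by construction of a scale that moves all genes up by 0.91. Of 77 genes named with a called change between 0 and 2 h, the call was lost in 19 on that scale, in 8 on the scale of the ribosomal protein mRNAs, in 7 on that of total counts, in 5 by DESeq2 and in at most 11 without 1 library. Ccnd1, Exosc10 and Ifitm2 were among those lost on each of these 3 scales and by DESeq2.

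Libraries with the same replicate number did not deviate together (correlations of -0.025, 0.028 and -0.064 at 0, 2 and 6 h). The sources used here do not say whether they shared a preparation, and 2 libraries a group cannot show it. With the replicate number as a block, 4580 genes were higher and 4027 lower at 2 h, and 1378 rose and 329 fell.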
